A study of Mus musculus with 10 samples.

Results

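The genes described here make, carry, sense and break down retinoic acid, the vitamin A derivative that patterns the embryonic eye. They are 9 in number, Aldh1a1, Aldh1a2, Aldh1a3, Crabp1, Crabp2, Rara, Rarb, Rarg and Cyp26a1, out of 19938 genes measured. They were taken by symbol for their roles in the pathway, with earlier results of these data known, and each had 1 probe set, so no choice between probe sets was needed. Lenses came from mouse embryos at E13.5, and both lenses of an embryo made 1 RNA sample and 1 array. DicerCN embryos (Le-Cre+/-;DicerloxP/loxP, 5 arrays) carried Cre recombinase under the P0 promoter of Pax6, which is active from E9.0 in surface ectoderm, the source of lens and cornea, together with loxP sites in both copies of Dicer, the nuclease that releases mature microRNAs from their precursors. Control embryos (Le-Cre-/-;DicerloxP/loxP, 5 arrays) carried the same loxP alleles and lacked the Cre transgene, although the sample titles call them wild type, so a transgene effect and a Dicer effect cannot be told apart in this design. The labels place Cre in lens and corneal epithelium, and cells of other origin attached to a lens, such as retina or mesenchyme, are then expected to keep Dicer in both groups.

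Retinol taken up from the blood is oxidised to retinaldehyde, and the retinaldehyde dehydrogenases Aldh1a1, Aldh1a2 and Aldh1a3 turn retinaldehyde into retinoic acid. The cellular binding proteins Crabp1 and Crabp2 hold retinoic acid in the cytoplasm, the receptors Rara, Rarb and Rarg pair with retinoid X receptors on response elements in DNA, and Cyp26a1 oxidises retinoic acid for removal. In the mouse eye Aldh1a1 is known from lens and dorsal retina, Aldh1a3 from ventral retina, pigment epithelium and surface ectoderm, and Aldh1a2 from the mesenchyme around the eye, where much of the signal is received.

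Among the 9 genes, Rarb and Cyp26a1 are textbook targets of the pathway itself, though not necessarily the only ones. A direct repeat of the kind that retinoic acid receptors are known to bind was found in both promoters. The windows run from 250 bases before to 50 bases after an annotated transcript start and are RefSeq sequences of build GRCm38.p6. They are shown because such a repeat was found in these 2 members and in none of the other 5 with an entry (Aldh1a1, Aldh1a2, Crabp1, Rara and Rarg). Capitals mark the core units of the repeat.
Rarb promoter, chr14:16575427-16575726, minus strand: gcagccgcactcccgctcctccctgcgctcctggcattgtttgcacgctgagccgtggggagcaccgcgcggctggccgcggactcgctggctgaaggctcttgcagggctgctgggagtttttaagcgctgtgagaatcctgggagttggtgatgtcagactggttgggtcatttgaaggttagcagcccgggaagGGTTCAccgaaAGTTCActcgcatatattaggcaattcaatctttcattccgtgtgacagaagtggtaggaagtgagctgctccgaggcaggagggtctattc
Cyp26a1 promoter, chr19:37697558-37697857, plus strand: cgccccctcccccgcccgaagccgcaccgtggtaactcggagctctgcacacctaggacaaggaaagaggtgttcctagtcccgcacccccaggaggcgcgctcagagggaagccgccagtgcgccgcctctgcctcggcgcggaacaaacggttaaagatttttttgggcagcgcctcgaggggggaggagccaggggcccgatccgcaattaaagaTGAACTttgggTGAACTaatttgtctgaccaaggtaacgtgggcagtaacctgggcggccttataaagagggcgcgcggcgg

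The search took as a core unit either AGGTCA, or else GGGTCA, or else AGTTCA, or else GGTTCA, and looked for any pair of units in the same direction with 5 bases between them, on both strands. Read as repeats, the sites below are the strand of the Rarb window and the opposite strand of the Cyp26a1 window, with core units in capitals.
Rarb site: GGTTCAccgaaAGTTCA
Cyp26a1 site: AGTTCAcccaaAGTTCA
The Rarb site begins 53 bases before that transcript start, and the Cyp26a1 site begins 32 bases before its own. The pair share 15 of their 17 bases. Of all 27025 genes with a promoter window, 31 (0.115%) hold such a repeat in at least 1 window. This share is a description with no test. Rarb and Cyp26a1 were already known as targets and the repeat was of a known kind, so a match in them is no new evidence. Among the other retinoid pathway genes listed further on, 0 of 34 with an entry hold it, and among the responsive genes 0 of 10. Repeats with 2 or 1 bases between the units were found in no member window, against 0.311% and 0.263% of all genes. A match describes letters in a window and does not show that a receptor binds there. The search was exact and saw only these windows, so a gene without a match may still hold a response element.

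None of the 9 genes passed the test between DicerCN and control lenses, in which a gene is called when limma's adjusted p over all genes is under 0.05. Across all genes 6.54% were called, 2.56% higher and 3.97% lower in DicerCN lenses. With limma's unadjusted p under 0.05 the members numbered 5 of 9 (Aldh1a1, Aldh1a2, Aldh1a3, Crabp1 and Rara), where 18.6% of all genes lay under it. The exact permutation test over arrays was under 0.05 for Aldh1a1, Aldh1a2 and Rara. It was not run over all genes, so no background share stands beside these 3 of 9. In no member did all DicerCN arrays lie on one side of all control arrays, against 7.38% of all genes, 2.96% with DicerCN arrays above and 4.42% with them below. The median change was 0.29 on the log2 scale (DicerCN minus control, here and throughout), beside −0.0014 over all genes, and 8 of the 9 changes were above 0.

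**Figure D1:**
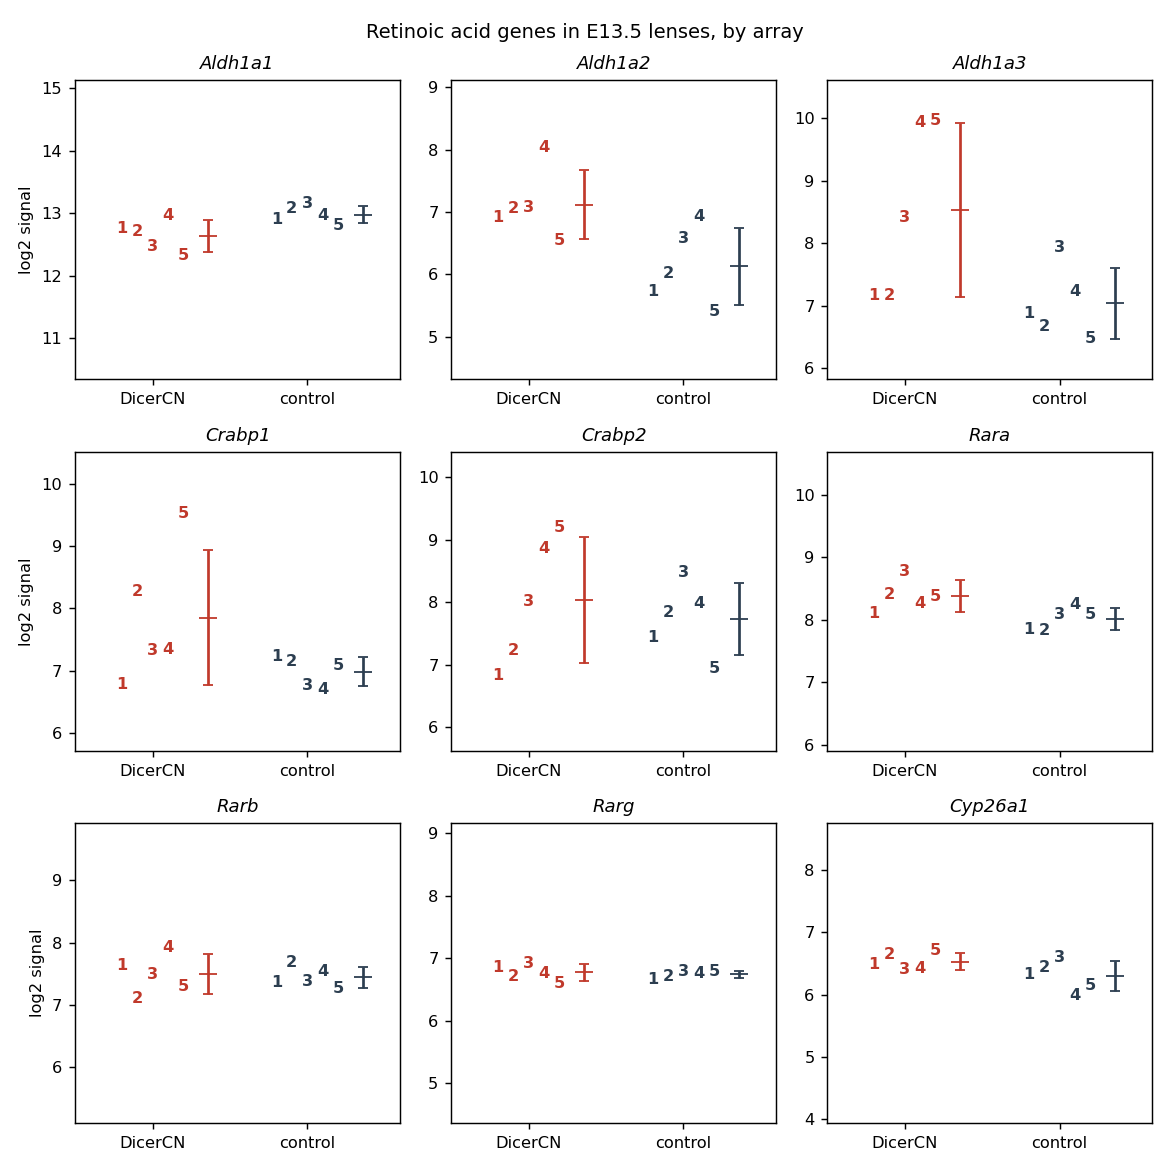
Log2 signal of each of the 9 genes, DicerCN arrays on the left and control arrays on the right of each panel; digits are replicate numbers and bars show mean ± SD (n = 5 each). All panels span the same number of log2 units around their own centre. Aldh1a3, Crabp1 and Crabp2 spread most among DicerCN lenses, with SDs of 1.39, 1.08 and 1.01, while Rarg and Cyp26a1 kept SDs of 0.13.

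As for the lenses themselves, the lens marker list (crystallins, beaded filament genes, Foxe3, Pitx3, Prox1 and others) averaged between 11.60 and 12.17 in DicerCN arrays and between 12.04 and 12.21 in control arrays, and 11 of its 12 genes lay above the median signal of all genes, so the genes of the labelled tissue were at high signal in every array. All 12 lens genes had a change below 0 (median −0.14), 1 of them called lower by limma and 5 with an unadjusted p under 0.05, and the list mean was 11.91 in DicerCN and 12.13 in control arrays, a difference of −0.22 (exact permutation p = 0.0952). Dicer1 averaged 10.30 ± 0.11 in DicerCN and 10.17 ± 0.13 in control lenses (SD, n = 5 each, limma adjusted p = 0.472). Where its probes lie relative to the deleted part was not examined, so this value checks no label. Some arrays stood apart in the genes of other cells. Control replicate 4 had a muscle marker level of 9.91, where all other arrays lay between 5.94 and 6.45. DicerCN replicate 5 had the highest neural retina level, 9.11, followed by DicerCN replicate 4 at 8.00, and these arrays with DicerCN replicate 1 had the highest pigment epithelium levels (7.22, 7.59 and 7.08). Macrophage markers averaged 7.14 in DicerCN and 6.50 in control arrays (exact permutation p = 0.0317). Because this level differed between the groups, a fit with it as a covariate also takes up part of the group difference. In whole lenses with attached tissue, fewer cells of a type and less RNA per cell cannot be told apart.

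Among the enzymes that make retinoic acid, Aldh1a1, the dehydrogenase typical of the lens, had log2 signals of 12.76, 12.71, 12.46, 12.96 and 12.32 in DicerCN replicates 1 to 5, against 12.90, 13.07, 13.16, 12.96 and 12.81 in control replicates 1 to 5. In 4 of 5 DicerCN lenses the signal lay below every control, and DicerCN replicate 4 lay within the control range. The change was −0.34 (SE 0.12, 95% confidence interval −0.60 to −0.08, limma adjusted p = 0.128), or 1.26-fold lower, with an exact permutation p of 0.0397. After quantile normalization it was −0.23 (limma adjusted p = 0.28). Aldh1a1 was the only member with a mean below that of controls, and its signal was strong in every array: 99.8% of genes had a lower mean. Part of that signal may come from its close relative Aldh1a7, described further on. The lens marker list ran in the same direction, with 12 of 12 changes below 0, and its part in the value of Aldh1a1 was not tested. The signal rank tells that the probe set was far from background, not how much transcript was present, since probe sets differ in response.

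Aldh1a2, the dehydrogenase of mesenchyme, had log2 signals of 6.92, 7.06, 7.08, 8.03 and 6.54 in DicerCN replicates 1 to 5, against 5.73, 6.02, 6.58, 6.93 and 5.41 in control replicates 1 to 5. DicerCN replicates 2, 3 and 4 lay above every control, and DicerCN replicates 1 and 5 lay inside the control range, whose top was set by control replicate 4. The change was 0.99 (SE 0.30, interval 0.34 to 1.64), or 1.99-fold, with the smallest limma p of the 9 genes (limma adjusted p = 0.0719). Its exact permutation p was 0.0397, where that of Rara was lower (0.0159). Without control replicate 4, the array with the muscle genes, the change was 1.19 and passed the test (limma adjusted p = 0.0253), as it did without DicerCN replicate 5 (1.14, adjusted p = 0.0496). Without both it was 1.34 (adjusted p = 0.0148), a fit chosen after seeing the data. No other array, left out alone, gave a call. Over the 10 fits without 1 array the change lay between 0.77 and 1.19, at limma adjusted p between 0.0253 and 0.177. It was lowest without DicerCN replicate 4 (0.77, adjusted p = 0.144). With macrophage markers as a covariate it was 0.39 (SE 0.37, adjusted p = 0.718).

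Aldh1a3, the dehydrogenase of ventral retina and pigment epithelium, showed the widest scatter. Its log2 signals were 7.17, 7.17, 8.41, 9.94 and 9.97 in DicerCN replicates 1 to 5, against 6.87, 6.67, 7.93, 7.23 and 6.47 in control replicates 1 to 5. DicerCN replicates 4 and 5 stood about 2 log2 units above the highest control, while DicerCN replicates 1 and 2 lay among the controls. The change of 1.50 (SE 0.54, interval 0.33 to 2.67), or 2.82-fold, did not pass (limma adjusted p = 0.138, exact permutation p = 0.0714), although only 0.0903% of all genes changed by as much in either direction. DicerCN replicates 4 and 5 were also the arrays with the highest neural retina levels and the highest pigment epithelium levels. With neural retina markers as a covariate the change was 0.76 (SE 0.43, limma adjusted p = 0.428), and with pigment epithelium markers 0.73 (SE 0.51, adjusted p = 0.513). Without DicerCN replicates 4 and 5 and control replicate 4 it was 0.60 (limma adjusted p = 0.484). These 2 marker levels differed in mean between the groups by 0.58 and 0.49 (DicerCN higher), so such a covariate can also take up part of the group difference. The part of attached tissue in the change was not tested.

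The binding proteins also scattered widely among DicerCN lenses. Crabp1, which is abundant in neural crest and in neurons and is thought to feed retinoic acid to its breakdown, had log2 signals of 6.78, 8.28, 7.33, 7.35 and 9.53 in DicerCN replicates 1 to 5, against 7.23, 7.15, 6.77, 6.70 and 7.08 in control replicates 1 to 5. The controls spanned 0.52 log2 units and the DicerCN lenses 2.75, with DicerCN replicate 5 highest and DicerCN replicate 2 next. The change was 0.87 (SE 0.40, limma adjusted p = 0.265, exact permutation p = 0.0794, interval 0.00 to 1.73), with 4 of 5 DicerCN lenses above every control. Without DicerCN replicate 5 it was 0.45 (adjusted p = 0.369) and with neural retina markers as a covariate 0.24 (adjusted p = 0.737). With macrophage markers as a covariate it was 1.99 (adjusted p = 0.035).

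Crabp2, which delivers retinoic acid to the receptors in the nucleus, had log2 signals of 6.83, 7.23, 8.01, 8.86 and 9.20 in DicerCN replicates 1 to 5, against 7.44, 7.84, 8.47, 7.98 and 6.94 in control replicates 1 to 5. DicerCN replicates 4 and 5 lay above all controls and DicerCN replicate 1 below all of them, so the groups overlapped throughout. The change was 0.29 (SE 0.42, limma adjusted p = 0.791), with an interval of −0.61 to 1.20 and an exact permutation p of 0.579. Its sign turned with neural retina markers as a covariate (−0.33) and with pigment epithelium markers (−0.16).

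Crabp2 and Aldh1a3 moved almost in parallel from lens to lens. After each group's mean was taken away, their deviations over the 10 arrays had a Pearson correlation of 0.956, the highest of any pair among the 9 genes. Crabp1 followed them less closely (0.415 with Crabp2 and 0.336 with Aldh1a3), and the lowest correlation among the members was that of Crabp1 with Rarg, −0.828. Among all genes, those most like Aldh1a3 by this measure were Clec18a (0.990), Foxp2 (0.974) and Cpne8 (0.966). Those most like Aldh1a1 were Igfals (0.948), Mgll (0.937) and Hccs (0.930). Each point is an array, so tissue that stayed attached to a lens enters every gene of that array, and its part in these correlations was not tested.

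Spread differed between the 9 genes. Aldh1a3, Crabp1 and Crabp2 had SDs over 1 log2 unit among DicerCN lenses, where 0.311% of all genes did. In 7 of the 9 the SD was larger in DicerCN than in control lenses, beside 64.7% of all genes. The neural retina and pigment epithelium marker levels of the same arrays are given next, and their part in this spread was not tested. The neural retina list (10 of 12 genes measured, 0 called by limma and 2 with an unadjusted p under 0.05, all 10 changes above 0) ran from 6.94 to 9.11 in DicerCN arrays and from 6.92 to 7.57 in control arrays. Its probe set of highest signal, Sox2, a progenitor factor, changed by 0.38 (limma adjusted p = 0.0801), and that of lowest signal, Dcx, a protein of young neurons, by 0.23. The pigment epithelium list (10 of 10 measured, 0 called by limma and 6 with an unadjusted p under 0.05, 8 changes above 0) ran from 6.14 to 7.59 in DicerCN and from 6.24 to 6.54 in control arrays. Its changes ran from −0.58 to 1.47 with a median of 0.30. Pmel, Dct, Tyrp1 and Tyr, genes of melanin synthesis and the melanosome named after their values were seen, changed by 1.47, 1.37, 1.09 and 0.96 (limma adjusted p between 0.0609 and 0.225). By signal, the highest probe set was that of Mitf, the regulator of pigment cells, which changed by −0.35, and the lowest that of Rpe65, an enzyme of mature pigment epithelium, at 0.12.

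**Figure D2:**
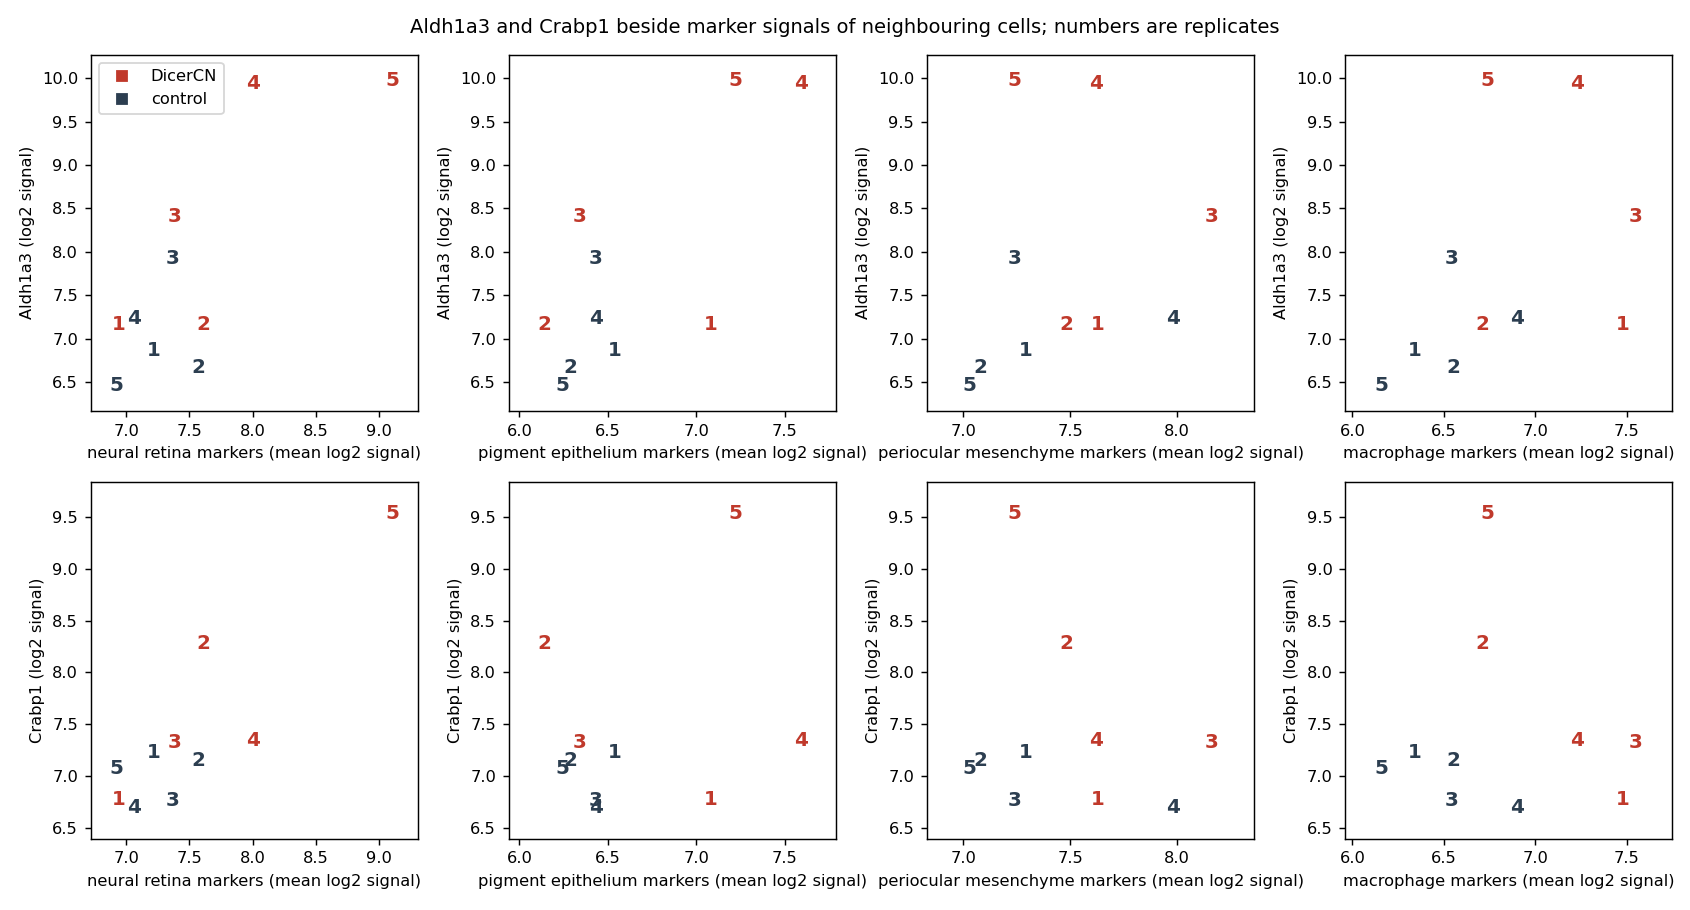
Log2 signal of Aldh1a3 (upper row) and Crabp1 (lower row) on each array, plotted against the mean log2 signal of marker lists for neural retina, pigment epithelium, periocular mesenchyme and macrophages; digits are replicate numbers, DicerCN in red and control in dark blue. DicerCN replicates 4 and 5, at 9.94 and 9.97 for Aldh1a3, have the highest neural retina and pigment levels, and DicerCN replicate 5, at 9.53 for Crabp1, has the highest neural retina level of 9.11.

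The periocular mesenchyme list (12 of 13 measured) ran from 7.24 to 8.16 in DicerCN arrays and from 7.03 to 7.98 in control arrays, with control replicate 4 the highest control and DicerCN replicate 3 the highest of all. In it 11 of 12 changes were above 0. Prrx2, a homeobox gene of mesenchyme named because it passed, was called higher by limma (0.56, adjusted p = 0.024) and Pdgfra, a growth factor receptor that lens epithelium also expresses, lower (−0.58, adjusted p = 0.0423). At the lowest signal of the list, Lum, a proteoglycan of corneal stroma, changed by 1.08 (limma adjusted p = 0.177). With the list's level as a covariate the change of Aldh1a2 was 0.72 (limma adjusted p = 0.221) and that of Rara 0.26. Macrophage markers (11 of 12 measured, all 11 changes above 0, 9 with an unadjusted p under 0.05) had 2 called higher by limma, 18.2% beside 6.54% of all genes. These were Csf1r and, named because it was called, Cx3cr1, both receptors of macrophages and microglia, while Aif1, at the lowest signal, changed by 0.30. Array signals have no true 0, so no marker can be said to be absent.

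Of the 3 receptors Rara, the most widely expressed of them, had the largest change. Its log2 signals were 8.10, 8.41, 8.77, 8.26 and 8.37 in DicerCN replicates 1 to 5, against 7.85, 7.82, 8.08, 8.24 and 8.08 in control replicates 1 to 5. All DicerCN lenses but replicate 1 lay above every control, though DicerCN replicate 4 did so by a narrow margin. The change of 0.37 (SE 0.12, interval 0.10 to 0.64), or 1.29-fold, did not pass over all genes (limma adjusted p = 0.105, exact permutation p = 0.0159).

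Rarb, the receptor induced by retinoic acid through the repeat shown above, had log2 signals of 7.63, 7.10, 7.48, 7.92 and 7.29 in DicerCN replicates 1 to 5, against 7.36, 7.68, 7.38, 7.54 and 7.26 in control replicates 1 to 5. The groups lay on top of one another, and the change was 0.04 (SE 0.14, limma adjusted p = 0.923, exact permutation p = 0.817, interval −0.26 to 0.35). Rarg, the receptor of skin and mesenchyme, varied little, between 6.60 and 6.92 in DicerCN lenses and between 6.66 and 6.79 in control lenses. Its change was 0.03 (SE 0.08, interval −0.14 to 0.20, limma adjusted p = 0.898). The intervals of Rarb and Rarg leave room for changes of up to 0.35 and 0.20 log2 units upward.

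Cyp26a1, the other gene with the repeat and the main sink of retinoic acid in early embryos, had log2 signals of 6.49, 6.64, 6.41, 6.42 and 6.70 in DicerCN replicates 1 to 5, against 6.32, 6.44, 6.59, 5.99 and 6.14 in control replicates 1 to 5. DicerCN replicates 2 and 5 lay above all controls and the rest among them. The change was 0.23 (SE 0.11, limma adjusted p = 0.293, exact permutation p = 0.0952, interval −0.01 to 0.48). Its signal lay under the median of all genes, as did those of Rarg and Aldh1a2. Near background an array can understate a change, and whether these signals were near background was not tested.

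**Figure D3:**
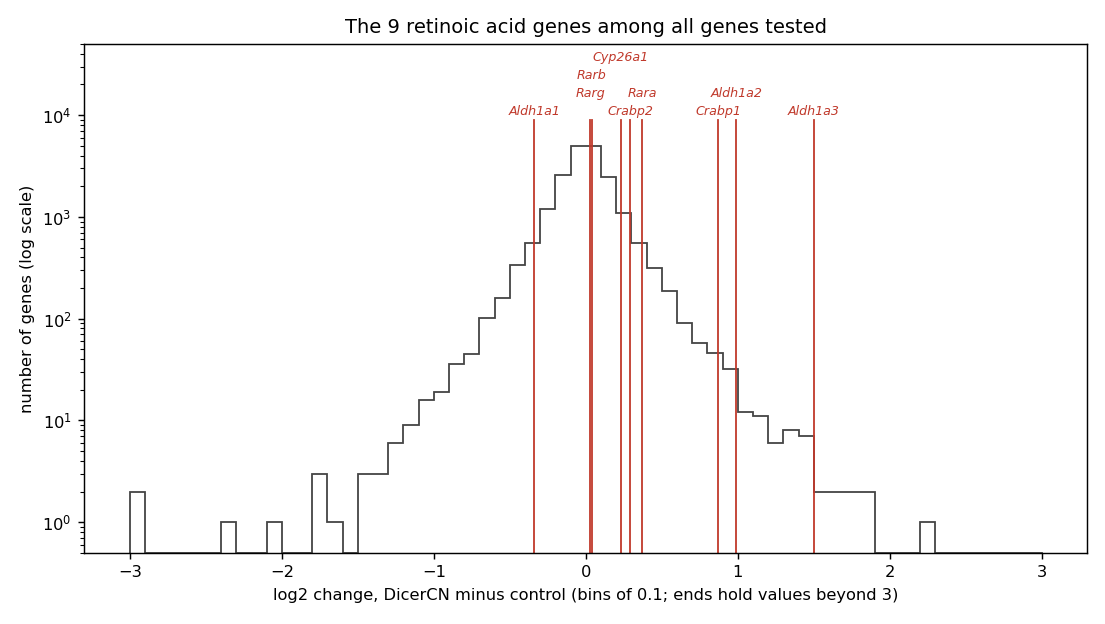
Histogram of the log2 change (DicerCN minus control) over all 19938 genes, with the number of genes per bin on a log scale, and a line for each of the 9 genes. Aldh1a1 at −0.34 stands left of 0, Rarb and Rarg at the centre, and Crabp1, Aldh1a2 and Aldh1a3 at 0.87, 0.99 and 1.50 in the sparse right tail.

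Around the 9 genes, 43 of 46 other genes of the pathway were measured, and 1 was called higher and 2 lower, or 6.98% beside the 6.54% of all genes. Their median change was 0.00. Both that fell and the 1 that rose had all DicerCN arrays on one side of all controls, as had Dgat1. These made 4 of the 43, beside 7.38% of all genes.

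The steepest of these was Aldh1a7, a close relative of Aldh1a1 in rodents that is not known to make retinoic acid. Its log2 signals were 9.73, 9.44, 8.61, 9.51 and 9.23 in DicerCN replicates 1 to 5, against 10.57, 10.75, 10.53, 10.55 and 10.54 in control replicates 1 to 5. The controls lay within a narrow band and every DicerCN lens was below it, by the most in replicate 3. Aldh1a7 fell by 1.28 (SE 0.17, limma adjusted p = 0.000852), or 2.43-fold, and kept its call in all 24 alternatives. Aldh1a7 and Aldh1a1 are so alike in sequence that part of each signal may come from the other transcript, and their separate values are uncertain.

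Bco1, the oxygenase that splits beta-carotene into retinaldehyde, had log2 signals of 6.44, 6.72, 6.49, 6.40 and 6.33 in DicerCN replicates 1 to 5, against 7.02, 7.03, 6.98, 6.91 and 6.96 in control replicates 1 to 5. The DicerCN lenses lay apart from the controls and below them. Bco1 fell by 0.50 (SE 0.08, limma adjusted p = 0.00299), and the call was lost only with macrophage markers as a covariate (−0.44, SE 0.12, adjusted p = 0.11). Over all genes that fit called 61 higher and 160 lower, beside 511 and 792 in the main fit. Ncoa3, a coactivator of nuclear receptors, rose by 0.32 (SE 0.08, limma adjusted p = 0.0334), with means of 9.22 ± 0.13 in DicerCN and 8.90 ± 0.07 in control lenses (SD, n = 5 each). That call was close to the threshold and did not hold without 1 of 7 arrays (control replicates 1, 2, 4 and 5 and DicerCN replicates 1, 2 and 3, each left out alone), at limma adjusted p between 0.0567 and 0.0907. It was lost in 13 of the 24 alternatives in all.

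**Figure D4:**
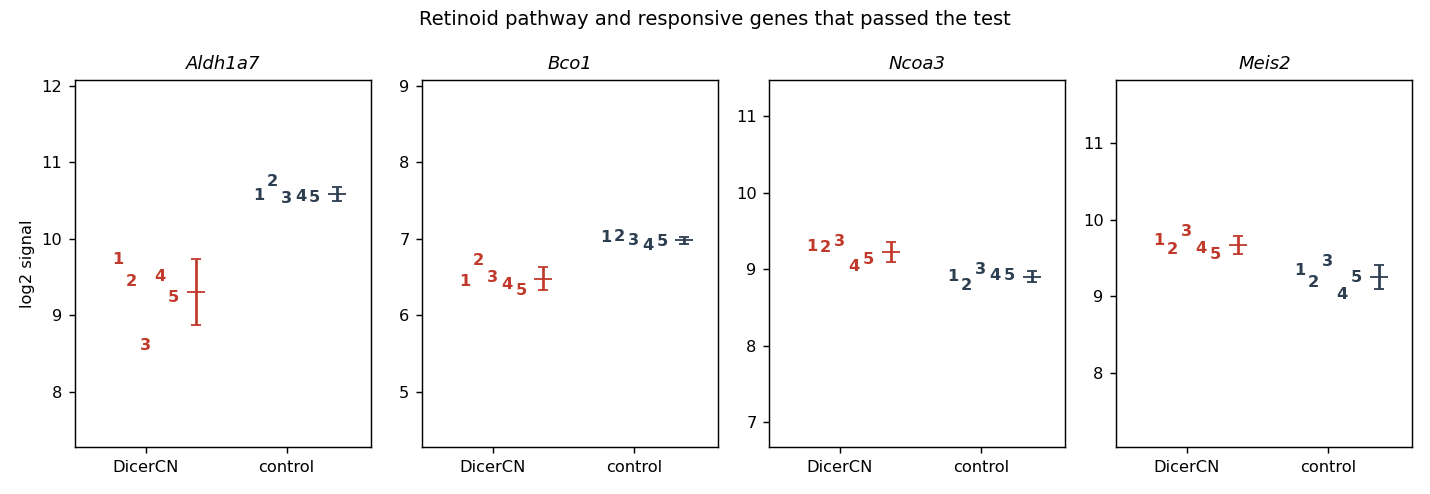
Log2 signal of the pathway and responsive genes that passed the test, DicerCN arrays left and control arrays right in each panel, digits giving replicate numbers and bars mean ± SD (n = 5 each). Aldh1a7 and Bco1 lie lower and Ncoa3 and Meis2 higher in all DicerCN lenses than in any control.

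Taken by role, 10 of 11 genes of retinol supply were measured, and Bco1 alone was called by limma. Dgat1, which can esterify retinol, changed by 0.19 with no overlap between groups (limma adjusted p = 0.145). Ttr, which carries retinol-binding protein in plasma, changed by 0.22 and Scarb1, a carotenoid and lipoprotein receptor, by 0.19, and neither passed. Stra6, the cell surface receptor for retinol delivery, named here for its role after its value was seen, stood at −0.12 (SE 0.10, interval −0.35 to 0.10).

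Of 17 enzymes that interconvert or oxidise retinoids and their relatives, Aldh1a7 alone was called. Dhrs3, which reduces retinaldehyde back to retinol and is itself induced by retinoic acid, changed by 0.59 (SE 0.22, limma adjusted p = 0.157). It passed without DicerCN replicate 5 (0.76, limma adjusted p = 0.0415), with neural retina markers as a covariate (0.82, adjusted p = 0.0497) and with the replicate block (adjusted p = 0.0465). Sdr16c5, an epidermal retinol dehydrogenase, changed by 0.24 (adjusted p = 0.0689) at a low signal, and Retsat, a retinol saturase, by −0.22 (adjusted p = 0.188). Rdh10, the main retinol dehydrogenase of embryos, named for its role after its value was seen, changed by 0.40 (SE 0.33, adjusted p = 0.601) and ranged from 7.72 to 9.52 in DicerCN and from 7.81 to 8.70 in control lenses. As with Aldh1a3, its highest signals were in DicerCN replicates 4 and 5 (9.52 and 9.47).

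Of Cyp26b1, Cyp26c1 and Fabp5, the 2 remaining breakdown enzymes and a carrier that can pass retinoic acid to Ppard, none was called by limma, 0 at an unadjusted p under 0.05, with changes of 0.13, −0.07 and −0.03. The partner receptors gave 0 calls of 4 with limma, also 0 at an unadjusted p under 0.05: Rxrg, Rxra and Ppard changed by −0.22, −0.08 and 0.07. Among 9 of 11 coregulators measured, Ncoa3 alone was called, beside Ncoa2, a related coactivator, at 0.17 (limma adjusted p = 0.3), Nrip1, a corepressor induced by retinoic acid, at 0.17 and Hdac3, a deacetylase of corepressor complexes, at −0.09.

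**Figure D5:**
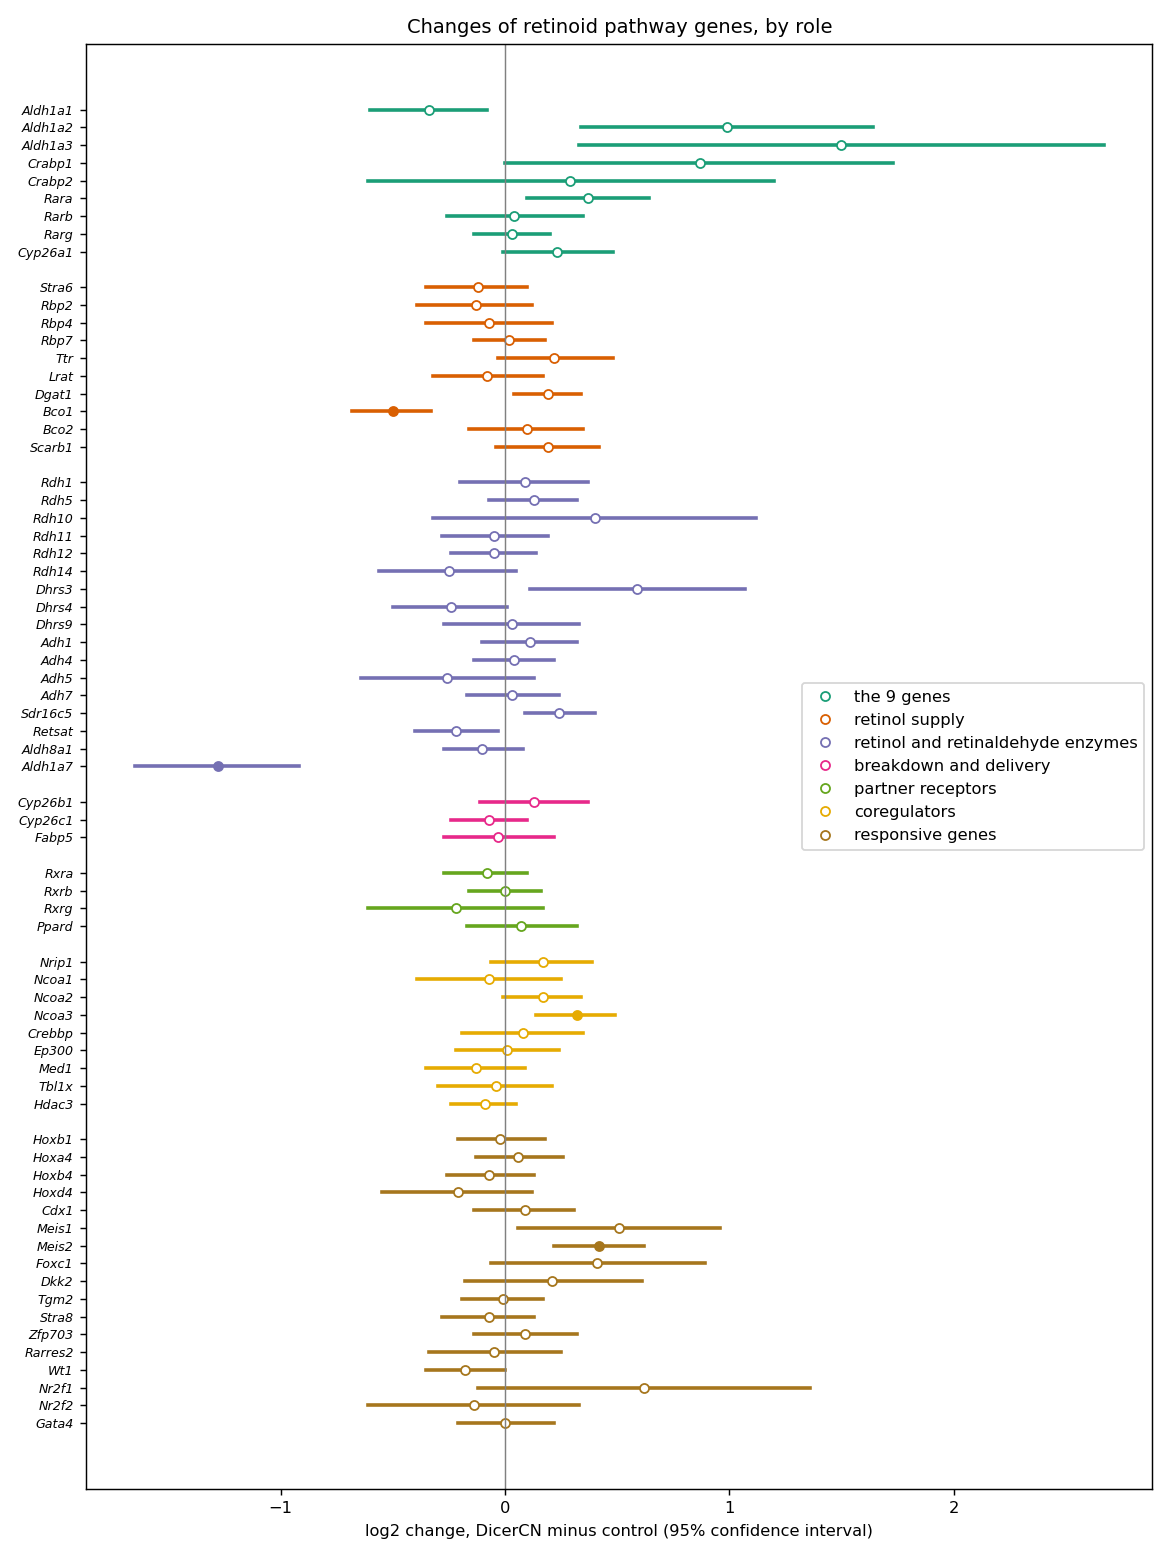
Log2 change (DicerCN minus control) with its 95% confidence interval for the 9 genes, the other pathway genes and the responsive genes, grouped by role; filled circles passed the test and open circles did not. Aldh1a7 at −1.28 and Bco1 at −0.50 are the filled circles left of 0, Ncoa3 at 0.32 and Meis2 at 0.42 those right of it, and the widest intervals belong to Aldh1a3, Crabp2 and Crabp1.

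Genes reported to respond to retinoic acid in embryos were followed in addition, 17 of 20 measured. Meis2, a homeobox gene of lens and limb, was called higher, 1 gene of 17 or 5.88%, beside 6.54% of all genes, and 0 were called lower by limma, while 3 of the 17 had an unadjusted p under 0.05 in either direction. The log2 signals of Meis2 were 9.73, 9.61, 9.84, 9.62 and 9.55 in DicerCN replicates 1 to 5, against 9.33, 9.18, 9.45, 9.02 and 9.25 in control replicates 1 to 5. The groups did not overlap, and Meis2 rose by 0.42 (SE 0.09, limma adjusted p = 0.0166). With macrophage markers as a covariate its change was 0.38 (SE 0.14) and the call was lost (adjusted p = 0.236). Its relative Meis1 changed by 0.51 (SE 0.21, limma adjusted p = 0.199), Foxc1, a forkhead gene of periocular mesenchyme, by 0.41 (adjusted p = 0.355) and Wt1 by −0.18 (adjusted p = 0.267). As with Aldh1a3, the highest Meis1 signals were in DicerCN replicates 4 and 5 (10.43 and 10.64). So were those of Nr2f1 (9.09 and 9.37), named after its values were seen, which changed by 0.62 (SE 0.34, limma adjusted p = 0.37). The reason was not tested. The median change of the list was 0.00, and Hoxb1, Hoxa4, Hoxb4 and Hoxd4, the classical Hox targets on the list, named together after their values were seen, lay between −0.21 and 0.06.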

How the data were processed

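Total RNA of 100 ng per sample was labelled with the Affymetrix whole-transcript sense target assay, per the labels' protocols; GCOS is named in the submitters' processing notes. The authors deposited values taken to be log2 signals, from 1.91 to 15.2, with array medians between 6.54 and 6.56; the summary and normalization of probes are not given in the sources used here; 0 other columns were present. Arrays give no counts, so their number limits the precision (median SE of a change 0.0986). Names came from the platform annotation: 21789 of 35557 had 1 symbol, 1621 several and 12147 none; 21698 matched RefSeq by gene ID. The brightest probe set stood for each of 999 genes with several. DicerCN and control were compared with limma 3.58.1 (R 4.3.3; lmFit and eBayes, 2-sided, Benjamini-Hochberg over 19938 genes, called at 0.05), which was tested on simulated data, and by exact 2-sided permutation over 252 splits (smallest p 0.00794). Marker levels are mean log2 signals of a list. Folds are differences of mean log2 signal turned to a linear scale.

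Genes were named by a rule: the 9 members, Dicer1, each called pathway or responsive gene and the 3 next by p in each list, the brightest and dimmest gene of a marker list, and the 3 genes most like the brightest and the most changed member. Other names are marked. The members and lists were chosen with earlier results of these data known. Listed genes without a named probe set were not analysed here. The surface ectoderm, endothelium and erythroid marker lists had 0 called genes of 8, 8 and 5 in limma (unadjusted p under 0.05 for 1, 1 and 2). The muscle list had 0 of 8 (unadjusted 0).

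Equal replicate numbers are not said to pair the arrays. Deviations from group means of same-numbered arrays correlated at 0.027, −0.088, 0.067, 0.190 and −0.021, which cannot exclude a pairing. Alternatives numbered 24, of which 2, which leave out arrays with muscle or retina signal together, were chosen after seeing the data.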

Additional observations from a re-analysis of the deposited data

How the results depend on the processing

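Over the 24 alternatives the count of members called higher was 1 with the replicate block, with array weights, with the macrophage covariate (Crabp1) and without control replicate 4 and DicerCN replicate 5 together, also when DicerCN replicate 4 was left out with them; Aldh1a2 was the gene in all but the macrophage case. Leaving out 1 array gave 0 to 1 higher and 0 to 0 lower. The replicate block gave Aldh1a2 a change of 0.99 at a limma adjusted p of 0.0025. Whether the numbers pair the arrays is not known, and DicerCN replicate 1 correlated best with control replicate 2 (0.283). Aldh1a2 passed in 6 alternatives and Crabp1 in 1. The other members passed in none of the 24, and Aldh1a1, Aldh1a3, Rara and Cyp26a1 kept their direction in all of them. Crabp2 reversed to −0.33 and −0.16 with the retina and pigment covariates and −0.31 without the 3 arrays. Rarb reversed to −0.13, −0.01 and −0.27 with the pigment, mesenchyme and macrophage covariates and −0.02 without the 3 arrays, and lay between −0.07 and 0.14 over single arrays left out. Rarg reversed to −0.02 and −0.09 with the mesenchyme and macrophage covariates and lay between −0.01 and 0.07. Calls among other pathway genes were 0 higher over all probe sets, with the Y-linked, mesenchyme and macrophage covariates and with those 2 arrays left out, and 2 higher with the retina covariate (Dhrs3 besides Ncoa3). Those lower were 1 with the macrophage covariate, and single arrays left out gave 0 to 2 higher and 2 to 3 lower. Responsive genes called higher were 0 with the macrophage covariate, 2 in both fits without several arrays (Dkk2 besides Meis2) and 1 to 1 over single arrays. Over all genes the macrophage covariate left 61 higher and 160 lower, the mesenchyme covariate 276 and 460, the pigment covariate 495 lower and the fit without 3 arrays 424 lower; single arrays left out gave 303 to 503 higher and 481 to 840 lower. The cause of these shifts was not tested.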

Other observations

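By Dixon's test of the gap between an extreme array and its neighbour, 0 of the 18 groups formed by the 9 genes in DicerCN and control lenses (5 arrays each) had an array apart from the rest. The wide scatter of Aldh1a3 among DicerCN lenses came from a pair of high arrays, a pattern this test does not pick out.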
